A study of Rattus norvegicus with 20 samples.

Results

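The core circadian clock genes were followed through epididymal fat of 4 groups of rats. The set was fixed by name as Bmal1 (also called Arntl), Clock, Npas2, Per1, Per2, Per3, Cry1, Cry2, Dbp and Tef. Of these 10 genes, 9 had a probe set paired with that gene alone and were measured, out of 14557 genes with such a probe set, and Tef was not analysed here. All 9 had 1 such probe set each. Their mean log2 signal over the 20 arrays ran between 3.93 for Cry1 and 7.11 for Clock, and all 9 means lay above 3.10, the level under which 95% of the 1279 olfactory, vomeronasal and taste receptor genes fell, taken as background.

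The arrays, Affymetrix Rat Gene 2.1 ST strips, carried RNA of male ZDF rats. This line is used as a model of obesity with diabetes, in which obese animals carry a defective leptin receptor. The strain is labelled Zucker and the tissue epididymal, without the word fat. The 5 rosiglitazone and 5 resveratrol arrays came from treated rats that the labels do not describe further. Rosiglitazone is an insulin sensitizer acting on the nuclear receptor PPAR-gamma, and resveratrol a plant polyphenol. The 5 obese arrays came from rats kept on a stock diet for 6 weeks and the 5 lean control arrays from lean rats on standard chow, so obesity and diet cannot be told apart. The leptin receptor genotype of each group is not given in the labels. All animals ate freely under reversed lighting, in which 12 h of light alternated with 12 h of darkness. The labels give neither the clock time of tissue collection nor the age of the animals, nor the dose, route or duration of each compound.

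In mammals the clock runs as a loop of transcription and repression in nearly every cell, fat cells included. BMAL1 pairs with CLOCK, or with its relative NPAS2, and the pair switches on genes that carry E-box sequences, among them Per1, Per2, Per3, Cry1, Cry2 and Dbp. The PER and CRY proteins accumulate and shut the pair down, and nuclear receptors of the ROR and REV-ERB families drive and repress Bmal1 through ROR elements. Bmal1 and Npas2 therefore peak at the opposite time of day to Dbp and Per3 in rodent tissues. DBP and TEF are transcription factors of the PAR bZIP family that carry the rhythm to output genes through D-box sequences, a site that the repressor NFIL3 also binds.

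Promoter windows of 300 bases, 250 before to 50 after the annotated start, were taken from RefSeq on rat assembly GRCr8, and 9 of the 10 named genes had at least 1 window. Windows of Bmal1 and Per2 are shown because they held the letters of the elements that set the opposite phases of the loop. Bmal1 (chr1:176766078-176766377, + strand) and Per2 (chr9:99496944-99497243, - strand) are written 5′ to 3′ along the gene, with the matches in capitals.
Bmal1: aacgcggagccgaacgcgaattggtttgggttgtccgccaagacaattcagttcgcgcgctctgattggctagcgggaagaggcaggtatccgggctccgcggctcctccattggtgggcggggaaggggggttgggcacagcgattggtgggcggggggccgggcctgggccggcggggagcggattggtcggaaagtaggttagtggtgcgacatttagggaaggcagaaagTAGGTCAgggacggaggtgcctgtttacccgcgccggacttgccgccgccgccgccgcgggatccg
Per2: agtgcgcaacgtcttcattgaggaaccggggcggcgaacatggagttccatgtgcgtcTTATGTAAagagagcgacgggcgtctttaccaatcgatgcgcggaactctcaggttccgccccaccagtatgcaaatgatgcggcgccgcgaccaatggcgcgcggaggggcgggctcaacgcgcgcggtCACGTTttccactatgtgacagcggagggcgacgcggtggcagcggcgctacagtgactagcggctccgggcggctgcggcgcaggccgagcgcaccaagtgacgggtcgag
The capitals mark in Bmal1 a ROR element core (TAGGTCA) whose first base lies 16 bases before the start, and in Per2 a D-box (TTANGTAA) and an E-box variant (CACGTT) whose first bases lie 192 and 62 bases before it. On both strands, the ROR core occurred in 2.63% of 33469 windows of this length in the whole table, the D-box in 2.24% and the E-box variant in 4.83%. Cry2 also held the E-box variant, and Tef the canonical E-box CACGTG, found in 6.42% of windows. The windows of Clock, Npas2, Per1, Per3 and Dbp held none of these motifs nor the cAMP response element TGACGTCA (1.83% of windows), which says only that those letters are not in these 300 bases.

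Within each group, rats differed widely in Dbp, and in Bmal1 and Per3. Dbp, the output activator, had log2 signals of 7.51, 8.46, 4.84, 6.37 and 5.47 in rosiglitazone replicates 1 to 5, and of 5.82, 7.86, 7.73, 5.08 and 6.36 in resveratrol replicates 1 to 5. Its signals were 5.37, 6.61, 8.17, 8.08 and 6.43 in obese replicates and 8.91, 5.92, 7.08, 8.92 and 9.13 in lean control replicates. Every group thus held arrays with high and with low Dbp, and all 4 groups overlapped. The lowest and highest arrays of one group lay 12.3-fold apart with rosiglitazone, 6.85-fold with resveratrol, 6.98-fold in obese rats and 9.27-fold in lean rats. The within-group SD of Dbp, pooled over the 4 groups, was 1.33 log2 units, which ranked 2 among the 7013 genes above background, where the median was 0.29. The cytochrome P450 gene Cyp2b1 stood above it at 1.5.

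Bmal1, the partner common to both activator pairs, had the opposite profile. Its log2 signals were 4.61, 3.95, 5.7, 5.6 and 5.87 in rosiglitazone replicates 1 to 5 and 5.44, 3.63, 4.10, 5.84 and 5.04 in resveratrol replicates. They were 5.66, 4.20, 3.91, 3.35 and 5.29 in obese replicates and 2.94, 4.90, 4.99, 2.65 and 3.56 in lean control replicates. In the resveratrol group the order of the 5 arrays by Bmal1 was the exact reverse of their order by Dbp, and in the obese group replicate 1 had both the highest Bmal1 and the lowest Dbp. The within-group SD of Bmal1 was 0.96, rank 9 of 7013.

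Per3, a PER family member, gave 5.10, 5.76, 3.98, 4.73 and 4.06 in rosiglitazone replicates 1 to 5, 4.78, 6.16, 5.76, 4.20 and 5.03 in resveratrol replicates, 4.53, 5.36, 6.30, 6.03 and 5.11 in obese replicates and 6.51, 4.80, 5.72, 6.21 and 6.76 in lean control replicates. Arrays high in Per3 were those high in Dbp, and its SD of 0.75 ranked 31. Npas2 had an SD of 0.65 (rank 83) and Per2 of 0.42 (rank 766). Cry1 (0.34, rank 1996), Per1 (0.31, rank 2770), Clock (0.26, rank 4515) and Cry2 (0.22, rank 5804) varied between rats of a group about as much as other genes. This order of spread, with Dbp, Bmal1, Per3 and Npas2 far out, is shown in the plot of within-group SD.

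**Figure D1:**
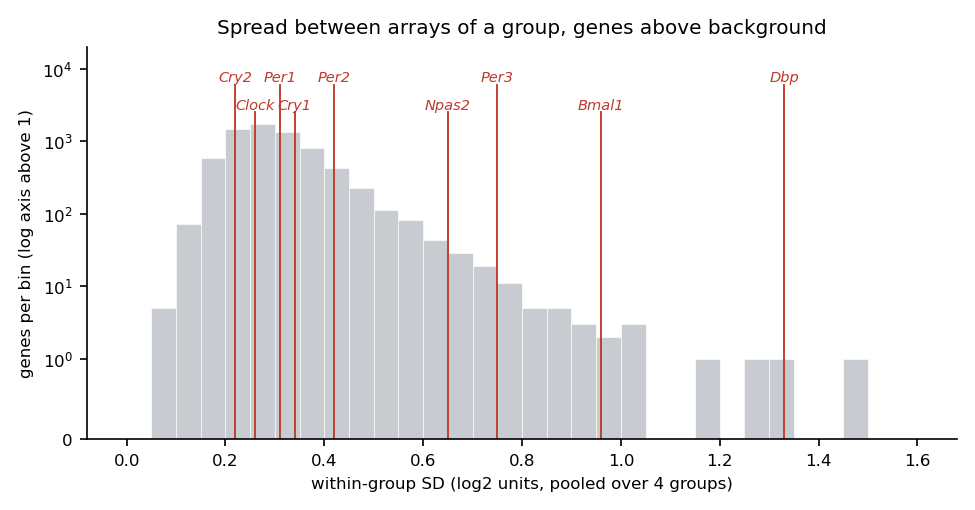
Histogram of the within-group SD (x axis, log2 units, pooled over 4 groups of 5 arrays) of the 7013 genes above background, with the number of genes per bin on a y axis that is logarithmic above 1, and red lines at the 9 clock genes. Dbp at 1.33, Bmal1 at 0.96, Per3 at 0.75 and Npas2 at 0.65 lie in the far right tail, and Cry2 at 0.22 lies left of the median of 0.29.

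To ask whether clock genes moved together from rat to rat, each gene was expressed as its deviation from the mean of its own group, and the 36 pairs of members were correlated over the 20 arrays with permutation tests that shuffled arrays only inside groups (100000 permutations, two-sided, Benjamini-Hochberg over the 36 pairs). Dbp and Per3 moved together, with Pearson r = 0.98 and Spearman rho = 0.98 (permutation p = 1e-05 for each, the smallest the test can give, adjusted p = 0.00012 for r and 0.00018 for rho). They lay on the same side of their group means in 19 of 20 arrays. Bmal1 ran against Dbp with r = -0.92 and rho = -0.87 (permutation p = 1e-05 for each, adjusted p = 0.00012 and 0.00018) and lay on the opposite side in 19 of 20 arrays. Bmal1 ran against Per3 likewise, with r = -0.88 and rho = -0.86 (permutation p = 1e-05 and 2e-05, adjusted p = 0.00012 and 0.00024).

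Npas2 sided with Bmal1 (r = 0.63, rho = 0.65, adjusted permutation p = 0.0116 and 0.0163) and against Dbp (r = -0.69, rho = -0.71, adjusted permutation p = 0.00534 and 0.0114). Per1, the PER gene that also answers to hormones and cAMP, followed Per3 (r = 0.73, rho = 0.76, adjusted permutation p = 0.00468 and 0.00639). In all, 11 of 36 pairs passed on r, 5 positive and 6 negative, and 9 passed on both r and rho. Leaving out the 2 arrays farthest from the median of the first gene kept the sign in all 11, with r still 0.97 in size for Per3 and Dbp and -0.91 for Bmal1 and Dbp, and quantile normalization also kept all 11 signs. Clock and Cry1 had no pair past the threshold, and Cry2 had 1, with Per2 on r only (r = 0.51, adjusted permutation p = 0.0335 for r and 0.0877 for rho).

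**Figure D2:**
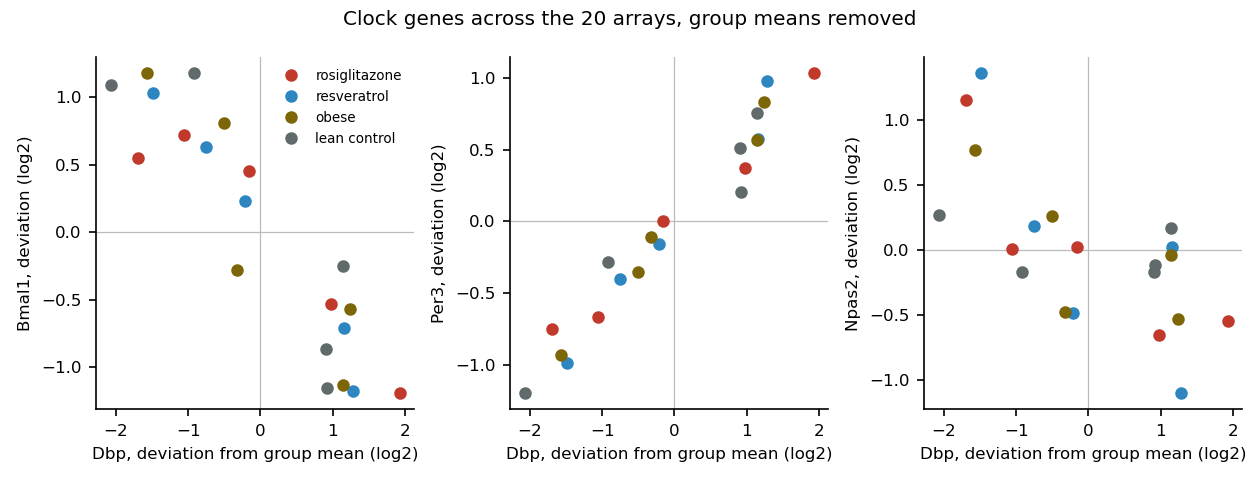
Deviation of Bmal1, Per3 and Npas2 (y axes) against that of Dbp (x axes), in log2 units from the mean of the array's own group, 1 point per array and 5 points per group. Bmal1 and Npas2 fall as Dbp climbs (r = -0.92 and -0.69) and Per3 climbs with it (r = 0.98). Group means are removed, so all 4 groups are centred alike by construction.

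**Figure D3:**
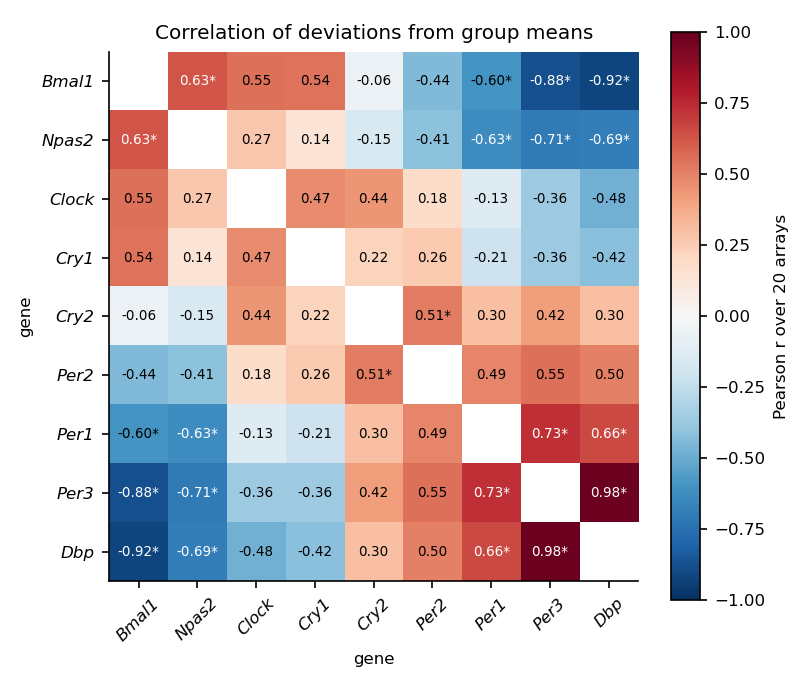
Pearson r of deviations from group means for the 36 pairs of clock genes over 20 arrays, red positive and blue negative, with an asterisk where the Benjamini-Hochberg adjusted permutation p is under 0.05. Bmal1 and Npas2 form 1 block and Per1, Per3 and Dbp another, with negative values between the blocks.

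The Dbp deviations left a gap between -0.16 and 0.91, so the relations were also taken on each side of it. The gap was found in these same data. Unlike the tests above, these permutations shuffled all arrays of a side, ignoring their groups. Per3 followed Dbp among the 11 arrays below the gap (r = 0.95, rho = 0.93, adjusted permutation p = 0.00018 and 0.00078) and among the 9 above it (r = 0.80, rho = 0.90, exact permutation test, adjusted p = 0.00852 and 0.00609, 6 relations). Bmal1 ran against Dbp below the gap (r = -0.65, adjusted permutation p = 0.0414, and rho = -0.62, adjusted permutation p = 0.0714), and above it the relation did not pass (r = -0.33, rho = -0.40, exact permutation test, adjusted p = 0.426 and 0.349). Npas2 likewise ran against Dbp below the gap (r = -0.70, rho = -0.71, adjusted permutation p = 0.0336 and 0.0362) and did not pass above it (r = -0.33, rho = -0.33, exact permutation test, adjusted p = 0.426 and 0.385). Each side spans less of the Dbp range than all 20 arrays, which lowers r by itself. Over the 9 genes, the leading axis of the standardised deviations carried 52.4% of their variance and the next 23.7%. Its loadings were positive for Bmal1 (0.42), Npas2 (0.36), Clock (0.20) and Cry1 (0.19) and negative for Dbp (-0.45), Per3 (-0.45), Per1 (-0.36), Per2 (-0.26) and Cry2 (-0.14).

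Among the other 7012 genes above background, 3 members stood at the ends of the ranking by r with Bmal1 or Dbp. Dbp and Per3 had the lowest r of all genes with Bmal1, and Per3 had the highest and Bmal1 the lowest r with Dbp. Npas2 ranked 65 from the top with Bmal1 and 15 from the bottom with Dbp, whereas Cry2 ranked 4990 and 1058 from the top. Beyond the members, the genes most like Bmal1 were Plat (tissue plasminogen activator, r = 0.79), P4ha1 (a collagen prolyl hydroxylase subunit, 0.79), Mall (0.78), Medag (0.78) and Rnf144a (0.78). Those running most against it were Ppa2 (r = -0.72), Akt2, the insulin-pathway kinase (-0.72), and Fgf10, a growth factor of fat precursors (-0.71). Most like Dbp were Fgf10 (r = 0.85), F3, the coagulation starter tissue factor (0.84), Mllt3 (0.82) and Akt2 (0.82), and most against it Fbl (-0.82), P4ha1 (-0.79), Nfil3 (-0.78) and Spon2 (-0.74). These genes were picked as the extremes over 20 arrays and carry no test. An r beyond 0.7 in either direction was found for 0.414% of genes with Bmal1 and 0.499% with Dbp.

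Array signal and cell makeup were set beside this spread. Over 63 relations between the 9 genes and the array's signal SD or the mean level of 6 sets of cell type markers, 0 passed on r by permutation. Clock and Cry2 had the largest r with signal SD, at r = 0.68 (rho = 0.52, adjusted permutation p = 0.143 and 0.346) and r = 0.67 (rho = 0.65, adjusted permutation p = 0.143 and 0.243), whereas Dbp was at -0.01 (rho = 0.14, adjusted permutation p = 0.973 and 0.834) and Bmal1 at 0.16 (rho = 0.08, adjusted permutation p = 0.802 and 0.914). With the endothelial markers, Cry2 had r = 0.68 (rho = 0.73, adjusted permutation p = 0.143 and 0.193, r = 0.52 without 2 arrays) and Per2 r = 0.63 (rho = 0.49, adjusted permutation p = 0.143 and 0.346, r = 0.42 without 2 arrays), and with the fat cell markers Cry2 had r = 0.65 (rho = 0.57, adjusted permutation p = 0.383 and 0.346). Among the markers, 7 measured fat cell genes averaged 9.61 ± 0.11 log2 units with rosiglitazone, 9.65 ± 0.23 with resveratrol, 9.56 ± 0.08 in obese and 9.41 ± 0.29 in lean rats (SD, n = 5 each). Within this mean, Lep was higher and Cfd lower in obese than in lean rats (log2 differences 1.61 and -1.11, limma adjusted p = 0.0417 and 0.0164). Cfd was higher with rosiglitazone than in obese rats (0.78, limma adjusted p = 0.0128), and Lep higher than in lean rats (1.10, limma adjusted p = 0.0282). The 7 measured genes of epididymal epithelium and sperm were all below background, with group means between 1.60 and 1.90.

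Rosiglitazone and lean control rats differed most in the clock. In this comparison Npas2, Clock and Bmal1, the activator side, were higher with rosiglitazone, and Per2 and Per3, of the repressor side, were lower. These 5 of 9 genes passed, where 25% of the 14557 genes were called in either direction (18.4% higher and 6.55% lower). Calls here and below are adjusted p-values under 0.05 from limma, fitted to all genes on all 20 arrays. At an unadjusted p under 0.05 the count was 7 of 9, where 37.2% of all genes passed. The labels do not say whether the treated rats were obese, what diet they ate or when tissue was collected. Drug, obesity, diet and collection time therefore cannot be told apart in this comparison, nor in resveratrol against lean rats. In bulk tissue fewer cells of a kind and less RNA per cell cannot be told apart.

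Npas2, which can take the place of CLOCK, had log2 signals of 4.11, 4.21, 5.92, 4.79 and 4.77 in the rosiglitazone arrays, against 3.2, 3.64, 3.2, 3.25 and 3.53 in the lean control arrays. Every rosiglitazone array lay above every lean one, a separation that 11.1% of all genes showed. The difference was 1.40 ± 0.34 (log2, SE), 2.63-fold, with an adjusted p of 0.00411. Clock read 7.32, 7.27, 7.60, 7.56 and 7.52 with rosiglitazone and 6.71, 6.87, 7.11, 6.12 and 6.49 in lean rats, again without overlap. It was 0.79 ± 0.17 higher on the log2 scale (1.73-fold, adjusted p = 0.00104).

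Bmal1 averaged 5.15 ± 0.83 with rosiglitazone and 3.81 ± 1.09 in lean rats (SD, n = 5 each), a log2 difference of 1.34 ± 0.49 (2.53-fold, adjusted p = 0.0488), with overlapping groups. Per2, the PER protein most needed for the loop in mice, read 4.41, 4.71, 3.82, 4.18 and 4.08 with rosiglitazone, against 5.06, 5.21, 4.91, 4.65 and 5.19 in lean rats. Apart from rosiglitazone replicate 2, which lay just above lean control replicate 4, the groups were separate. Per2 was lower with rosiglitazone by 0.77 on the log2 scale (SE 0.24, adjusted p = 0.0191). Per3 averaged 4.73 ± 0.74 with rosiglitazone and 6.00 ± 0.77 in lean rats and was lower with rosiglitazone by 1.27 (SE 0.39, adjusted p = 0.0197), with overlapping groups. Dbp, at 6.53 ± 1.47 with rosiglitazone and 7.99 ± 1.43 in lean rats, had the largest difference of the 9 (-1.46 ± 0.68) and did not pass (adjusted p = 0.119). Cry2 differed by -0.39 ± 0.15 (adjusted p = 0.0638), Per1 by -0.28 ± 0.19 (adjusted p = 0.30) and Cry1 by 0.26 ± 0.20 (adjusted p = 0.371).

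**Figure D4:**
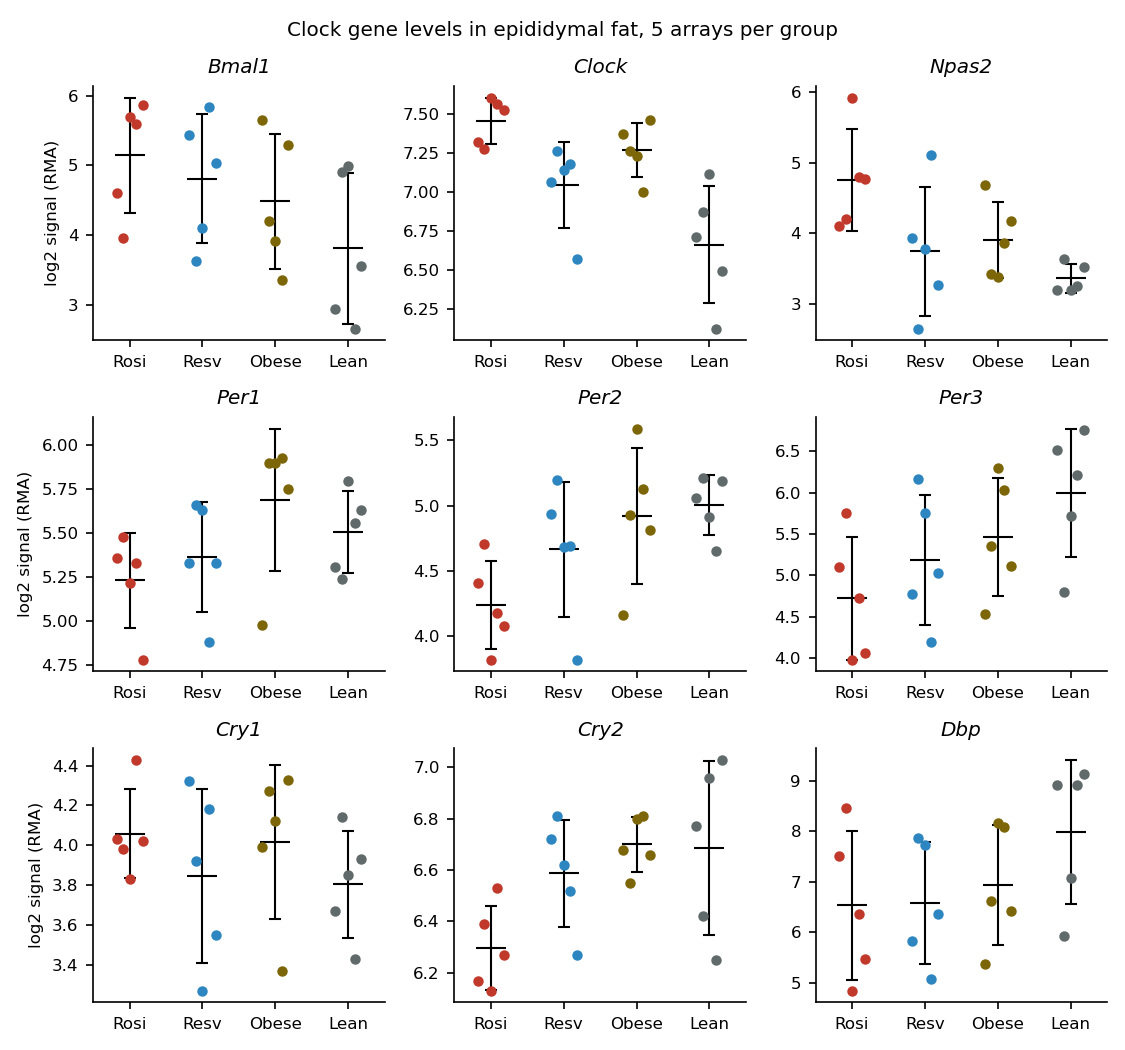
Log2 RMA signal (y axis) of the 9 clock genes in rosiglitazone (Rosi), resveratrol (Resv), obese (Obese) and lean control (Lean) rats, 1 point per array, with the group mean and SD (n = 5) as black bars. Npas2 and Clock of the rosiglitazone rats lie above all lean arrays, while Dbp and Bmal1 spread widely inside every group.

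In units of the within-group SD, the rosiglitazone and lean difference was largest for Clock (3.06) and Npas2 (2.15) and smaller for Per2 (-1.82), Cry2 (-1.75), Per3 (-1.69), Bmal1 (1.40) and Dbp (-1.10). All 9 differences had the sign of the gene's loading on the rat-to-rat axis, the axis along which rats of 1 group differ. The same held for all 9 in rosiglitazone minus obese, resveratrol minus lean control and rosiglitazone minus resveratrol, in which no member was called, and for 7 in obese minus lean control and 6 in resveratrol minus obese. Because the 9 genes vary together and the comparisons share groups, these signs are not independent. The counts are a description and carry no test. Because Dbp tracked that axis, its level was added as a covariate, an alternative chosen after the data were seen. In that fit Clock differed by 0.66 (limma, adjusted p = 0.00755), Npas2 by 0.91 (adjusted p = 0.0259) and Per3 by -0.46 (adjusted p = 0.0224). Bmal1 then differed by 0.38 (adjusted p = 0.278) and Per2 by -0.53 (adjusted p = 0.104). Dbp is 1 member of the set, and its own group means differed. The fit therefore does not match rats on the axis and cannot separate the axis from other differences.

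The count of called members depended on arrays and scaling. It ran between 2, without rosiglitazone replicate 3, and 7, without lean control replicate 2, and was 3 without lean control replicate 1, lean control replicate 5 or rosiglitazone replicate 5. Npas2 passed in all 28 alternatives run (adjusted p up to 0.0281). Clock passed without any 1 array but not under quantile normalization (0.28, adjusted p = 0.155) or with array signal SD as a covariate (0.41, adjusted p = 0.261), and Bmal1 passed in 11 of 28 alternatives. Array signal SD itself differed between these groups, at 1.725 to 1.91 in lean and 1.86 to 1.949 in rosiglitazone arrays. With it as a covariate 929 genes were called, against 3632 without it. The call of Bmal1 was lost without lean control replicate 1, 4 or 5, rosiglitazone replicate 3, 4 or 5, resveratrol replicate 1, 3 or 5, or obese replicate 2 or 3. Adjusted p then lay between 0.0514 and 0.152. Bmal1 also lost its call under quantile normalization (1.15, adjusted p = 0.137) and with array signal SD as a covariate (0.90, adjusted p = 0.55). The same happened with another variance prior (adjusted p = 0.0957) and with a replicate block (adjusted p = 0.0585). Per3 lost its call without lean control replicate 1 or 5 or rosiglitazone replicate 3 or 5 (adjusted p = 0.0553 to 0.0608), and with array signal SD as a covariate (-1.58, adjusted p = 0.101), and Per2 without rosiglitazone replicate 3 (adjusted p = 0.0579). Dbp passed without lean control replicate 2 (-1.98, adjusted p = 0.0393) or rosiglitazone replicate 2 (-1.94, adjusted p = 0.0395), the lean array lowest and the rosiglitazone array highest in Dbp, and Cry2 without lean control replicate 2 (-0.45, adjusted p = 0.0464) or 4 (-0.50, adjusted p = 0.0199). Per1 passed under quantile normalization (-0.68, adjusted p = 0.00857). Cry2, in contrast to Clock and Bmal1, passed under quantile normalization (-0.86, adjusted p = 1.53e-05) and with array signal SD as a covariate (-0.75, adjusted p = 0.00787).

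Rosiglitazone and obese rats were compared next. The labels do not say that the treated rats were obese or ate the same diet, so drug, obesity and diet cannot be told apart here. In limma 0 of 9 clock genes passed, where 9% of all genes did, and 4 had an unadjusted p under 0.05, where 21.3% did. Those 4 were Per2, Cry2, Npas2 and Per1. Per2 read 4.41, 4.71, 3.82, 4.18 and 4.08 with rosiglitazone, against 4.16, 4.93, 5.59, 5.13 and 4.81 in obese rats (log2 difference -0.69 ± 0.24, adjusted p = 0.0719). Obese replicate 1, the array lowest in Dbp among obese rats, was also the only obese array inside the range of the rosiglitazone arrays. Without it Per2 fell by 0.88 (adjusted p = 0.0165) and Per1 by 0.64 (adjusted p = 0.0216), and Per2 also passed without rosiglitazone replicate 2 (-0.80, adjusted p = 0.0429) or resveratrol replicate 5 (-0.69, adjusted p = 0.0385).

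Cry2, the CRY repressor with the smallest spread here, read 6.17, 6.39, 6.13, 6.53 and 6.27 with rosiglitazone and 6.68, 6.55, 6.80, 6.81 and 6.66 in obese rats. The groups did not overlap, as in 10.2% of all genes, though the nearest arrays were 6.53 and 6.55. The difference of -0.40 ± 0.15 did not pass (adjusted p = 0.106), yet it did under quantile normalization (-0.60, adjusted p = 0.00131), with the signal SD covariate (-0.54, adjusted p = 0.00784) and in the fit of these 2 groups alone (-0.40, adjusted p = 0.0458). Npas2 differed by 0.85 ± 0.34 (adjusted p = 0.136), Bmal1 by 0.67 ± 0.49 (0.494), Per3 by -0.74 ± 0.39 (0.289) and Dbp by -0.40 ± 0.68 (0.812). The 95% interval of the Dbp difference ran between -1.8 and 1.0.

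Obese and lean control rats were compared for the clock in obesity, diet included. No clock gene passed of 9 in limma, where 0.721% of genes did, and 1, Clock, had an unadjusted p under 0.05, as did 18.2% of genes. Clock read 7.37, 7.26, 7.23, 7.0 and 7.46 in obese rats, against 6.71, 6.87, 7.11, 6.12 and 6.49 in lean rats, where lean control replicate 3 lay above obese replicate 4. The difference was 0.60 ± 0.17 (adjusted p = 0.0805), and without lean control replicate 3 it was 0.71 (adjusted p = 0.00644). The number of calls depended on single arrays and on scaling. Without that array 1856 of the 14557 genes were called, against 105 with it. Without any other 1 lean array 5 to 18 were called, and with array signal SD as a covariate 0. The signal SD of lean control replicate 3 was 1.91, against 1.725 to 1.807 in the other lean arrays. The part of signal SD in the change was not tested. Dbp averaged 6.93 ± 1.19 in obese and 7.99 ± 1.43 in lean rats (-1.06 ± 0.68, adjusted p = 0.41), and Bmal1 4.48 ± 0.96 and 3.81 ± 1.09 (0.67 ± 0.49, adjusted p = 0.479). Per2 (-0.08 ± 0.24) and Cry2 (0.02 ± 0.15) were the closest of the 9.

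Resveratrol and obese rats were the nearest pair. No clock gene passed of 9 in limma, nor did any of the 14557 genes, and 0 of 9 had an unadjusted p under 0.05, where 2.82% of genes did. Differences ran between -0.36 for Dbp and 0.33 for Bmal1, with adjusted p = 0.999 for each of the 9. For Cry2 the 95% interval ran between -0.43 and 0.20 and for Clock between -0.57 and 0.12, whereas for Dbp it ran between -1.76 and 1.04. The interval was thus narrower for Clock and Cry2 than for Dbp, though for Clock it still reached down to -0.57.

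Resveratrol and lean control rats differed in 0 of 9 clock genes in limma, where 2.63% of genes were called, and in 3 at an unadjusted p under 0.05 (Clock, Per3 and Dbp), where 19.4% were. Dbp was at 6.57 ± 1.21 and 7.99 ± 1.43 (-1.42 ± 0.68, adjusted p = 0.25), Per3 at 5.19 ± 0.78 and 6.00 ± 0.77 (-0.81 ± 0.39, adjusted p = 0.257) and Clock at 7.04 ± 0.27 and 6.66 ± 0.38 (0.38 ± 0.17, adjusted p = 0.21). Without lean control replicate 3, Clock passed (0.49, adjusted p = 0.0454), while the calls over all genes went up to 2073, against 383 with that array. Without any other 1 lean array 102 to 193 genes were called, and with array signal SD as a covariate 4. Rosiglitazone and resveratrol rats, compared directly, also gave 0 of 9 calls in limma, where 7.56% of genes were called, and 2 at an unadjusted p under 0.05 (Npas2 and Clock), where 19.3% were. Npas2 averaged 4.76 ± 0.72 with rosiglitazone and 3.75 ± 0.91 with resveratrol (1.01 ± 0.34, adjusted p = 0.0773), and it passed without resveratrol replicate 4 (1.35, adjusted p = 0.00821). Clock differed by 0.42 ± 0.17 (adjusted p = 0.147) and its groups did not overlap, as in 7.94% of genes, with the nearest arrays at 7.27 and 7.26.

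**Figure D5:**
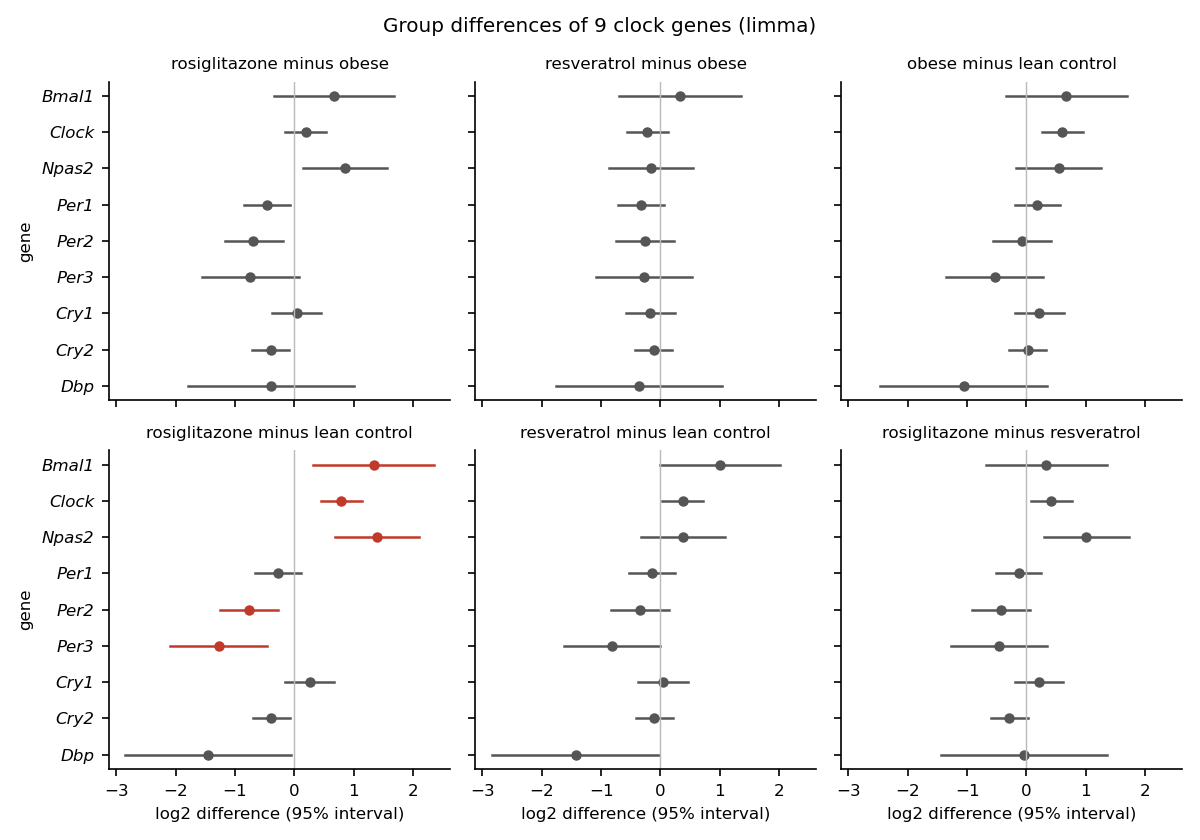
Log2 differences (points) of the 9 clock genes in the 6 comparisons with 95% intervals of the limma model (lines), all 20 arrays fitted together, red where the adjusted p is under 0.05. Calls appear only between rosiglitazone and lean control, for Bmal1, Clock, Npas2, Per2 and Per3, and Dbp has the widest interval in every panel.

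Across all 4 groups at once, the moderated F test of limma called 2 of 9 members, Clock (F = 8.38, adjusted p = 0.00634) and Npas2 (F = 5.86, adjusted p = 0.026), where 17.9% of all genes were called. Both calls were lost under quantile normalization, which called Per1, Per2, Per3 and Cry2 instead, and with array signal SD as a covariate, which called Cry2. Per2 came next (F = 4.27, adjusted p = 0.0694), and Cry1 was the least different (F = 0.78, adjusted p = 0.679). By group mean, Bmal1, Clock, Npas2 and Cry1 were highest with rosiglitazone and lowest in lean rats, and Per2, Per3 and Dbp were highest in lean rats and lowest with rosiglitazone. Neighbours in these orders did not pass in any member.

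Of 11 genes of the secondary loop, including the REV-ERB and ROR receptors, only Nfil3 and Bhlhe40 had a probe set of their own. Bhlhe40 (DEC1), an E-box repressor, rose with rosiglitazone, at 6.33 ± 0.60 against 5.13 ± 0.60 in obese rats (2.29-fold, adjusted p = 0.0332), 5.09 ± 0.45 with resveratrol (2.35-fold, adjusted p = 0.0315) and 5.00 ± 0.95 in lean rats (2.51-fold, adjusted p = 0.00784; SD, n = 5 each). Across rats Bhlhe40 ran with Dbp (r = 0.60 over 20 arrays, a description), although Dbp itself passed in no comparison. Nfil3, the repressor of D-box sites, was higher with rosiglitazone than in lean rats (3.71 ± 0.57 and 2.88 ± 0.62, 1.78-fold, adjusted p = 0.0352), with the lean mean below background. Across rats it ran against Dbp (r = -0.78) and with Bmal1 (r = 0.75).

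Of 14 clock kinases, ubiquitin ligases and partners 6 were measured. None passed between rosiglitazone and obese rats, where 9% of all genes did. With rosiglitazone 2 were higher than in lean rats, where 18.4% of all genes were higher. These were Prkaa2, a catalytic subunit of AMPK, the kinase that marks CRY for breakdown (5.76 ± 0.14 and 4.28 ± 0.75, 2.79-fold, adjusted p = 9.8e-05), and Gsk3b (1.32-fold, adjusted p = 0.0474). Prkaa2 was also higher with resveratrol than in lean rats (5.33 ± 0.32 and 4.28 ± 0.75, 2.07-fold, adjusted p = 0.0245). Prkaa1, the other AMPK catalytic subunit, passed against lean rats neither with rosiglitazone (log2 difference -0.23, adjusted p = 0.282) nor with resveratrol (-0.34, adjusted p = 0.214). Of 12 clock-controlled and metabolic coupling genes 9 were measured and 3 rose with rosiglitazone over obese rats, where 9% of all genes were called in either direction. These were Ppara, a lipid-sensing receptor that acts on Bmal1 in mouse liver (4.64 ± 0.47 and 3.24 ± 0.19, 2.63-fold, adjusted p = 1.85e-05), Por, which gives electrons to cytochrome P450 enzymes (1.59-fold, adjusted p = 0.0306), and Ppargc1a (1.86-fold, adjusted p = 0.00936), whose mean stayed below background in both groups. The median log2 difference of the 9 was 0.34, against 0.04 over all genes. Against lean rats 4 were higher (Ppara, Ppargc1a, Noct and Klf10) and 1 was lower, Pck1, which makes the glycerol backbone of stored fat (log2 difference -0.99, adjusted p = 0.0129). Over resveratrol rats 4 were higher with rosiglitazone (Ppara, Ppargc1a, Por and Pnpla2, the last 1.37-fold, adjusted p = 0.0397), where 7.56% of all genes were called.

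Per1 answers to glucocorticoids and to cAMP as well as to the clock, so genes of both inputs were read beside it. Each count of rosiglitazone against obese rats below stands beside 9% of all genes, called in either direction. Of 6 measured glucocorticoid-responsive genes 1 rose with rosiglitazone over obese rats, Pdk4 (9.53 ± 0.37 and 8.03 ± 0.52, 2.83-fold, adjusted p = 0.0088), itself also a PPAR target, and 1 fell, Nfkbia (log2 difference -0.65, adjusted p = 0.0161). Against lean rats 3 were higher, Pdk4, Fkbp5 (2.38-fold, adjusted p = 0.00049) and Klf9 (1.69-fold, adjusted p = 0.00258), where 18.4% of all genes were higher. The 18.4% also stands beside the counts of higher genes in rosiglitazone against lean rats that follow. For the counts of lower genes the share of all genes was 6.55%. Of 9 measured immediate early genes Junb rose over obese rats (1.69-fold, adjusted p = 0.0158), and Junb (1.96-fold, adjusted p = 0.000947) and Egr2 (2.10-fold, adjusted p = 0.0014) were higher than in lean rats. Over resveratrol rats, Pdk4 (3.02-fold, adjusted p = 0.00635) and Junb (1.69-fold, adjusted p = 0.0188) were higher with rosiglitazone, where 7.56% of all genes were called. Pdk4 was also higher with resveratrol than in lean rats (2.58-fold, adjusted p = 0.0452). The means of Klf9, Junb and Egr2 in the obese and lean groups all lay below the background level of 3.10. In the resveratrol and obese comparison, and in the obese and lean comparison, no gene of these 5 lists passed in limma, the largest obese and lean difference being that of Pdk4 (1.46 ± 0.37, adjusted p = 0.0591). Endothelial markers, whose mean was 4.84 ± 0.12 with rosiglitazone and 6.11 ± 0.25 in obese rats, and fibroblast markers, at 6.21 ± 0.41 and 7.37 ± 0.35, were lower in 5 of 6 and 5 of 8 measured genes with rosiglitazone. Macrophage markers averaged 6.69 ± 0.69 with rosiglitazone and 5.90 ± 0.83 in lean rats, with 2 of 6 higher. Against lean rats, endothelial markers (4.84 ± 0.12 and 5.82 ± 0.30) were also lower in 5 of 6, and of 8 fibroblast markers (6.21 ± 0.41 and 6.70 ± 0.54) 4 were lower and 1 higher. The part of these markers in the differences of Bmal1, Clock, Per3, Per2, Cry2, Npas2 and Bhlhe40 was not tested.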

How the data were processed

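RNA of 20 epididymal samples was hybridised to Affymetrix arrays, 1 sample per array and 5 per group. The deposited log2 values were made by the authors with RMA, per the submitters' processing notes, whose version is not given in the sources used here. The values ran between -0.17 and 12.47, with array medians of 2.50 to 2.74. The number of arrays limits the precision. Of 36685 features, 14824 had 1 gene symbol, 829 several and 21032 none in the platform annotation. The brightest such probe set stood for each of 14557 genes. limma 3.58.1 in R 4.3.3 fitted 1 mean per group over all 20 arrays, with Benjamini-Hochberg adjustment over all genes, and the fit was tested on simulated data. Pair correlations used within-group permutations in numpy 2.4.6 (python 3.11.15), and figures matplotlib 3.10.9. Relations on each side of the Dbp gap used permutations that ignored the groups. All clock genes with a probe set of their own are named. From the other clock gene lists, genes past the threshold are named, and the genes most alike are the 5 highest and 5 lowest r. The members, the lists and the tests were chosen with earlier results of these data known. The titles call the samples biological replicates. Alternatives were quantile normalization, array signal SD as a covariate, a filter on dim genes, fits of 2 groups, another variance prior, a replicate block and leaving out each array.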

Additional observations from a re-analysis of the deposited data

Results flagged for a closer look

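Per1 in obese replicate 1 had a log2 signal of 4.98, against 5.75 to 5.93 in the other 4 obese arrays. Its gap to the nearest array was 0.816 of the range of the group, over the critical value of 0.71 for 5 arrays (Dixon's test). Of 36 sets of 5 arrays tested, this was the only one to pass, and chance passes about 1 in 20. The same array had the lowest Dbp (5.37), Per2 (4.16) and Per3 (4.53) and the highest Bmal1 (5.66) and Npas2 (4.68) of the obese group.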

How the results depend on the processing

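Of 1506 values recomputed under alternatives, 1414 kept direction and side of the threshold, 30 gained the call, 26 lost it and 36 changed sign, none of these 36 called as reported. Causes were not tested. Called clock genes for rosiglitazone minus obese (0) became 3 under quantile normalization, 2 with array signal SD as a covariate, and 1 with dim genes filtered (fewer genes tested), in the fit of 2 groups and with Dbp as a covariate. For rosiglitazone minus lean control (5) the signal SD and Dbp covariates gave 3 each. For rosiglitazone minus resveratrol (0), quantile normalization, the signal SD covariate and the dim filter gave 1 each and the Dbp covariate 2. For obese minus lean control (0), leaving out lean control replicates 3 and 4 together gave 1. The F test (2, Clock and Npas2) gave 4 under quantile normalization (Per1, Per2, Per3 and Cry2) and 1 with signal SD (Cry2), so that both reported calls were lost. The Dbp covariate and the omission of both lean arrays were chosen after seeing the data. Leaving out 1 array gave 0 to 2 for rosiglitazone minus obese, 0 to 1 for obese minus lean control, resveratrol minus lean control and rosiglitazone minus resveratrol, 2 to 7 for rosiglitazone minus lean control, 1 to 4 for the F test and 0 throughout for resveratrol minus obese.

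Signs turned under quantile normalization for Clock (-0.06) and Cry1 (-0.06) in rosiglitazone minus obese, Per1 (-0.06) and Cry2 (-0.26) in obese minus lean control and Cry1 (-0.07) in resveratrol minus lean control. With signal SD they turned for Cry1 in rosiglitazone minus obese (-0.04), Cry2 in obese minus lean control (-0.21) and Cry1 in resveratrol minus lean control (-0.09). Without both lean arrays, Cry2 in obese minus lean control was -0.04 and Cry1 in resveratrol minus lean control -0.06. With Dbp as a covariate the values were 0.0 for Cry1 in rosiglitazone minus obese, -0.03, 0.09 and 0.05 for Bmal1, Per2 and Per3 in obese minus lean control, and -0.09, 0.08 and -0.11 for Npas2, Per1 and Cry1 in resveratrol minus lean control. Leaving out 1 array turned Cry1 (-0.12 to 0.12) and Dbp (-0.88 to 0.02) in rosiglitazone minus obese, Npas2 (-0.50 to 0.12) and Dbp (-0.75 to 0.01) in resveratrol minus obese, Per2 (-0.25 to 0.11) and Cry2 (-0.09 to 0.10) in obese minus lean control, Cry1 (-0.07 to 0.19) in resveratrol minus lean control and Dbp (-0.52 to 0.38) in rosiglitazone minus resveratrol.

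The replicate numbers did not pair the arrays: deviations of same-numbered arrays correlated at -0.28 to 0.40 over 30 pairs, and 2 of 20 arrays were most like one of their own number. With the replicate block the rosiglitazone minus lean control count was 4 and the F test count 2, and the counts of the other comparisons were 0. A second probe set could be tried for no clock gene. Signal over background limits Bmal1, with lean control arrays at 2.94 and 2.65, and Npas2, with a resveratrol array at 2.65, all below 3.10. The lean control arrays of Npas2, at 3.2 to 3.64, lay just above that level.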
